A study of Mus musculus with 20 samples.

Results

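The smooth muscle contractile genes of the mouse colon were examined by RNA-seq in 20 mice, as a set of 34 genes among the 32991 genes with a summed value. The set was given as a list of gene symbols with no threshold on a measured value, and was drawn up with earlier results of these data known. It holds 12 genes of the contractile apparatus, 12 of filaments and anchoring, 6 of channels and calcium handling, 2 transcription factors and 2 markers of interstitial cells of Cajal. The mice were male C57BL/6 mice in 4 groups of 5, with 1 colon library each, and every mouse was gavaged for 91 days. Control mice received double distilled water only, and PZH mice received 250 mg/kg/d of PZH (Pien Tze Huang), a formula of traditional Chinese medicine. AOM/DSS mice, labelled Model, received water, 1 dose of 12.5 mg/kg azoxymethane (AOM, a colon carcinogen) and, from 7 days later, 4 cycles of 2% dextran sulfate sodium (DSS, which injures the colon epithelium) for 5 days, each followed by 2 weeks of water. PZH + AOM/DSS mice, labelled Model + PZH, received the same AOM and DSS together with 250 mg/kg/d PZH. Ages of the mice were not given in the sources used here.

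Smooth muscle cells of the colon wall shorten when a myosin motor slides along smooth muscle actin, after calcium entry has led to phosphorylation of the myosin regulatory light chain. Intermediate filaments, dense body proteins and the dystrophin complex carry this force to the membrane, and interstitial cells of Cajal pace it. Transcription of most contractile genes depends on serum response factor, the product of Srf, and on its partner myocardin, the product of Myocd, which act at a DNA element called the CArG box.

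The promoter windows of the RefSeq table (GRCm38.p6, 250 bases before to 50 after each start) were searched for the CArG box on both strands. Of the 34 genes, 29 had a window, and 4 of these (13.8%) held a match, against 488 of 27025 genes (1.81%) in the whole table. Myh11, Actg2, Tagln, Nexn and Myocd had none in the table. The 4 matches are shown because they place the element that Srf binds beside genes measured here. Each sequence reads 5′ to 3′ on the gene's strand, in lower case with the CArG box in capitals, and stops before the gene's first annotated base in GENCODE M21.
Myl9, chr2:156775264-156775419, plus strand: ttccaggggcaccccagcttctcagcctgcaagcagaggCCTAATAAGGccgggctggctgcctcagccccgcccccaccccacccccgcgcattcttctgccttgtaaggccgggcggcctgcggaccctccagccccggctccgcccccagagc
Srf, chr17:46556176-46556362, minus strand: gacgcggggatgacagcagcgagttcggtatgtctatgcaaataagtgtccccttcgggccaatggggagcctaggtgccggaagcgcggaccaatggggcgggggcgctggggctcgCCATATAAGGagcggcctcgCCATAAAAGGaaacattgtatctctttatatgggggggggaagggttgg
Ldb3, chr14:34588683-34588881, minus strand: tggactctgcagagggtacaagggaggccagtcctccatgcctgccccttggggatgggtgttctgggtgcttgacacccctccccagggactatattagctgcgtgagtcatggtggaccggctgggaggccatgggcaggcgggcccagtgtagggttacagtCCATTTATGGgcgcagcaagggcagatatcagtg
Dmd, chrX:82948670-82948869, plus strand: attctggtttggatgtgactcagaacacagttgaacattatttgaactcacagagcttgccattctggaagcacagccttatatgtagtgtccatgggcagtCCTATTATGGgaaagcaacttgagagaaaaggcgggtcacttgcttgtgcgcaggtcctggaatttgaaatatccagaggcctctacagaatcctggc
Measured to the RefSeq start, the box began 161 bases upstream in Myl9, 82 and 62 bases upstream in Srf, 35 in Ldb3 and 98 in Dmd. A match is a description of the letters and not of a bound site.

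In GRCm38 coordinates (GENCODE M21) the genes the results turn on lie at chr19:34241090-34255590 (Acta2), chr6:83512905-83536265 (Actg2), chr16:14194535-14291372 (Myh11), chr1:75360329-75368579 (Des), chr3:102086415-102146514 (Casq2) and chr13:55495795-55513676 (Pdlim7).

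Values were FPKM, that is fragments per kilobase of transcript scaled to the fragments mapped in each library, summed over the annotated transcripts of each gene. In Control mice the highest levels were those of Tagln (881 ± 382 FPKM, SD, n = 5), Acta2 (746 ± 292) and Actg2 (634 ± 209). These standard deviations overlap widely, and the order of these 3 genes is not separated by them. Tagln encodes transgelin, an actin-binding protein, Acta2 the smooth muscle α-actin and Actg2 the enteric γ-actin. The lowest means were those of Sgca (1.22 ± 0.428 FPKM), which encodes α-sarcoglycan, and Myocd (0.482 ± 0.274). Mylk had a lower median than either (0.162 FPKM), and its mean of 1.74 FPKM rested on Control mouse 41 (7.88). Summed over the 34 genes, the level was 3874 to 8894 FPKM in Control mice, 2071 to 4114 in PZH mice, 1876 to 3185 in AOM/DSS mice and 1820.5 to 3940.4 in PZH + AOM/DSS mice. FPKM is scaled to each library. In bulk tissue, fewer muscle cells, less RNA per muscle cell and more RNA from other cells therefore cannot be told apart.

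Some mice stood apart from their group. Control mouse 50 had the highest value of the 5 Control mice in 27 of the 34 genes, from 1.28 times the mean of the other Control mice for Srf to 3.02 times for Flna. In Control mouse 17 the striated muscle actin Acta1 was at 21.2 FPKM against 0.839 to 4.26 in the other 19 mice, and 9 of 15 striated muscle genes were highest there. AOM/DSS mouse 30 was highest in its group in 25 genes, PZH + AOM/DSS mouse 13 in 23, and PZH mouse 46 was lowest in its group in 27. The extraction text of the labels names the abdominal aorta, whereas the tissue label is colon. Of 12 colon epithelial markers, 9 were at 100 FPKM or more in every mouse. Epcam was listed at 0 in 13 mice and at 233 FPKM or more in the others, so a listed 0 need not mean that the RNA was missing.

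**Figure D1:**
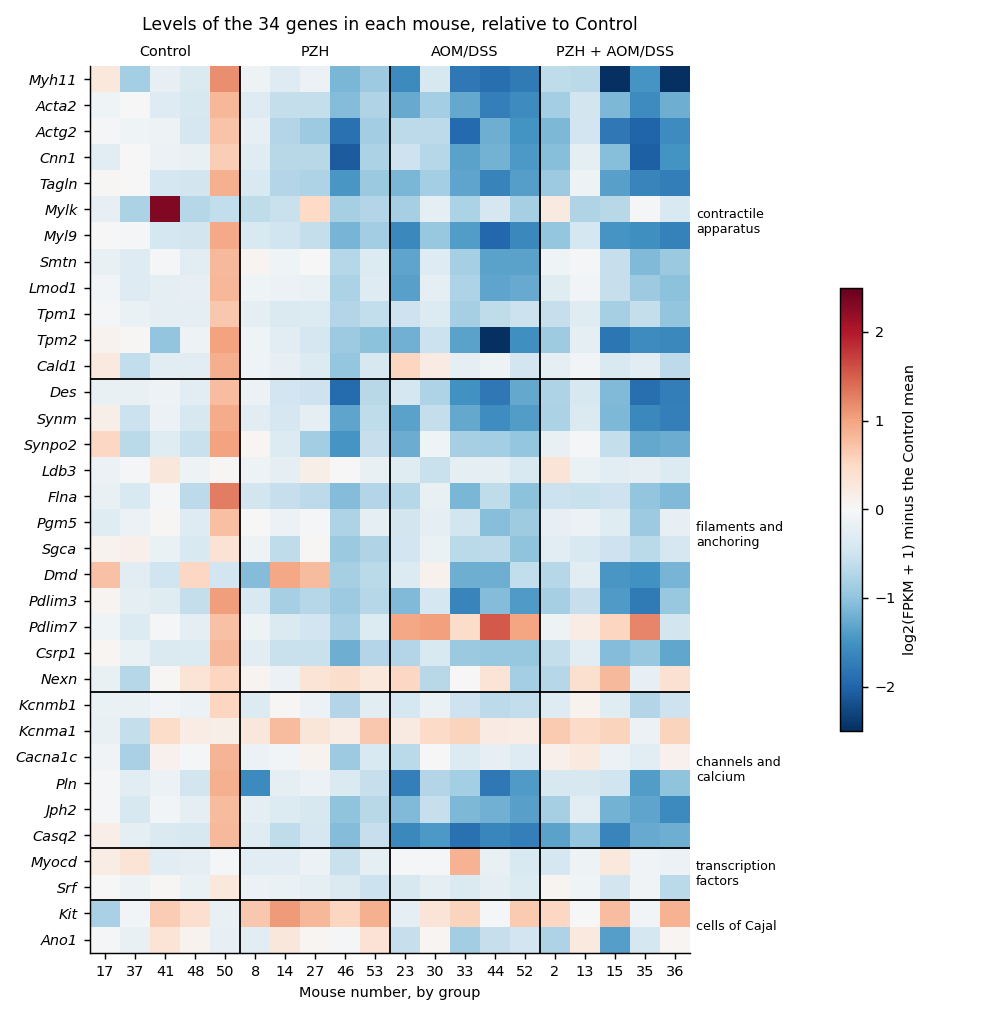
Level of each of the 34 genes (rows) in each mouse (columns, by mouse number), as log2(FPKM + 1) minus the mean of the 5 Control mice, with red above and blue below that mean and the color scale closed at 2.5 in either direction. Most rows are red in Control mouse 50 and blue in the AOM/DSS mice, while the Pdlim7 row is red in all 5 AOM/DSS mice.

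The first comparison asked how the genes stood in AOM/DSS mice against Control mice. The contractile genes were lower in AOM/DSS mice. Of 32 genes tested, 19 fell, 1 rose (Pdlim7) and 12 did not pass an adjusted P of 0.05. The share of all 15812 genes tested was 7.23% for a fall and 16.4% for a rise. The groups did not overlap, with AOM/DSS lower, in 14 of the 32 genes, against 5.43% of all genes. The median log2 fold change of the 32 genes was -0.79, against 0.09 over all genes. With median-of-ratios scaling, which moved the median of all genes to 0.01, 23 of the 32 were lower and 1 higher, and the calls over all genes went from 2596 higher and 1143 lower to 1936 and 1587. The study set its criteria (fold change above 2 and unadjusted P under 0.05) for transcripts fitted with DESeq. Applied here to summed genes fitted with limma, they gave 14 genes lower and 0 higher, against 1.86% and 5.85% of all genes. Mylk and Myocd, both under the filter of 0.5 FPKM in 5 of the 10 mice, were not tested.

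In the contractile apparatus, 10 of the 11 genes tested fell, with a median log2 fold change of -1.20. Acta2 was at 661, 708, 567, 540 and 1254 FPKM in Control mice 17, 37, 41, 48 and 50. It was at 297, 394, 292, 216 and 238 FPKM in AOM/DSS mice 23, 30, 33, 44 and 52. All 5 AOM/DSS mice lay below all 5 Control mice, and the log2 fold change was -1.33 ± 0.24 (SE), with an adjusted P of 0.0028. Actg2, the actin that marks visceral muscle, was at 593, 566, 560, 456 and 996 FPKM in the Control mice, in the same order. In the AOM/DSS mice it was at 387, 388, 158, 261 and 215 FPKM. The groups again did not overlap, and the fold change of Actg2 was -1.20 ± 0.28 (adjusted P = 0.0108).

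Myh11, the smooth muscle myosin heavy chain that pulls on these actins, was at 231, 106, 167, 151 and 431 FPKM in the Control mice. It was at 63.3, 145, 55.2, 51.3 and 55.7 FPKM in the AOM/DSS mice. AOM/DSS mouse 30 therefore lay above Control mouse 37, and the other 4 AOM/DSS mice lay below every Control mouse. The log2 fold change of Myh11 was -1.49 ± 0.38, with an adjusted P of 0.0172. Myl9, the regulatory light chain whose phosphorylation starts contraction, and whose promoter is shown above, was at 538, 514, 391, 391 and 1026 FPKM in the Control mice. Its values in the AOM/DSS mice were 173, 276, 202.2, 137 and 174 FPKM. Here the groups did not overlap, and the change was -1.51 ± 0.27 (adjusted P = 0.00287).

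Regulators of the thin filament also fell. The transgelin gene Tagln went from 881 ± 382 FPKM in Control mice to 348 ± 74.0 in AOM/DSS mice, a log2 change of -1.27 ± 0.25 (adjusted P = 0.00495). Cnn1, which encodes calponin, an inhibitor of the actomyosin ATPase, went from 258 ± 72.9 to 126 ± 36.2 FPKM, a change of -1.04 ± 0.22 (adjusted P = 0.00657). Neither gene overlapped between the groups. The remaining falls in this class were those of Smtn (smoothelin, -1.03 ± 0.26, adjusted P = 0.016), Lmod1 (leiomodin, an actin nucleator, -0.99 ± 0.27, adjusted P = 0.023), Tpm2 (-1.47 ± 0.42) and Tpm1 (-0.58 ± 0.18). The last pair encode tropomyosins, which lie along the actin filament. AOM/DSS mouse 30 was the mouse that overlapped Control in Smtn, Lmod1 and Tpm2.

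Cald1, which encodes the actin-binding protein caldesmon in a muscle and a non-muscle form, did not pass the test. It was at 64.1, 34.9, 44.1, 44.8 and 103 FPKM in the Control mice and at 79.1, 62.3, 45.6, 49.2 and 38.6 FPKM in the AOM/DSS mice. The groups overlapped over nearly their whole range, with a log2 fold change of -0.02 ± 0.28 (adjusted P = 0.972). Mylk, the kinase that phosphorylates Myl9, could not be assessed. Its 2 annotated transcripts summed to under 1 FPKM in 17 of 20 mice and to 0 in 3, with a highest value of 7.88 FPKM in Control mouse 41. Fragments that the assembly had given to transcripts without a gene name are not in these sums, and their number for Mylk is not known.

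**Figure D2:**
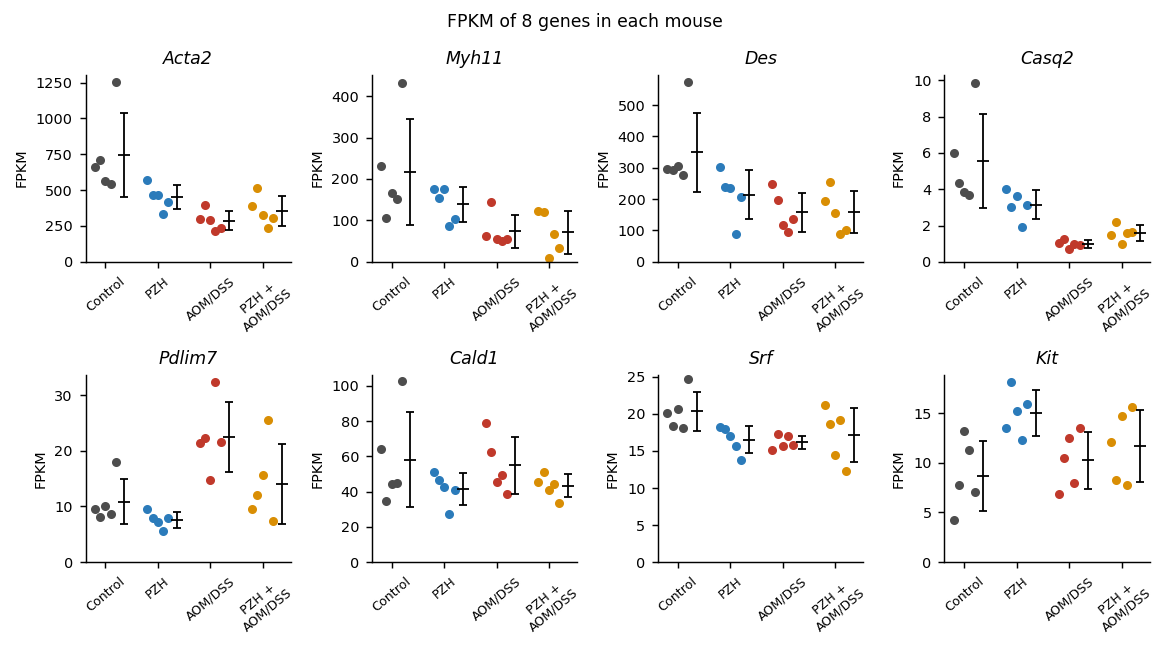
FPKM (vertical axis, starting at 0) of 8 genes in each of the 4 groups, 1 point per mouse, with the mean and SD (n = 5) as a bar to the right of the points. Acta2, Des, Casq2 and Srf do not overlap between Control and AOM/DSS mice, Pdlim7 is higher in AOM/DSS mice, and Cald1 and Kit overlap between these 2 groups.

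Among the genes of filaments and anchoring, 5 of 12 fell and 1 rose. Des, the muscle intermediate filament desmin, was at 296, 293, 305, 278 and 573 FPKM in the Control mice. In the AOM/DSS mice it was at 248, 196, 116, 96.7 and 137 FPKM. Every AOM/DSS mouse lay below every Control mouse, and the fold change was -1.16 ± 0.28 (adjusted P = 0.0129). Its filament partner synemin, encoded by Synm, went from 38.0 ± 17.8 to 14.9 ± 4.65 FPKM, a log2 change of -1.23 ± 0.27 (adjusted P = 0.0092). Falls were also found for Pdlim3 (a PDZ and LIM protein of the actin cytoskeleton, -1.13 ± 0.31, adjusted P = 0.0222), Csrp1 (a LIM protein, -0.79 ± 0.22, adjusted P = 0.0258) and Sgca (-0.60 ± 0.18). Sgca was under 1 FPKM in all 5 AOM/DSS mice, where the log2(FPKM + 1) scale understates a change.

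Pdlim7, a relative of Pdlim3, went the other way. It was at 9.60, 8.06, 10.2, 8.69 and 17.9 FPKM in the Control mice and at 21.4, 22.3, 14.7, 32.3 and 21.6 FPKM in the AOM/DSS mice. Of the AOM/DSS mice only mouse 33 lay below the highest Control mouse, which was mouse 50. The log2 fold change was 1.00 ± 0.23 (adjusted P = 0.0112). Pdlim3 and Pdlim7, which both combine PDZ and LIM domains, thus moved in opposite directions in the same 10 mice.

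The other 6 genes of this class did not pass the test. Dmd, which encodes dystrophin and holds a CArG box in its promoter window, was at 5.998, 2.46, 1.98, 5.02 and 2.01 FPKM in the Control mice and at 2.302, 3.53, 0.796, 0.811 and 1.73 FPKM in the AOM/DSS mice. The groups overlapped, with a log2 difference of -0.66 ± 0.33 (adjusted P = 0.178). Ldb3, a Z-disc protein gene with the same element, was at 6.21 ± 0.921 and 4.66 ± 0.498 FPKM. Its groups did not overlap, yet its difference of -0.34 ± 0.13 missed the threshold (adjusted P = 0.0715), which it passed with median-of-ratios scaling (-0.44). The differences of Synpo2 (synaptopodin 2, -0.80 ± 0.34), Flna (filamin A, -0.73 ± 0.33), Pgm5 (a protein of adherens junctions, -0.62 ± 0.24) and Nexn (nexilin, -0.14 ± 0.32) were also negative, without passing the test. Pgm5 passed with median-of-ratios scaling (-0.70) and in 1 fit of all 20 mice.

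Of the 6 genes of channels and calcium handling, 3 fell, all of them at the calcium store of the sarcoplasmic reticulum. Casq2, the calsequestrin that buffers calcium in the store, was at 5.98, 4.32, 3.82, 3.68 and 9.86 FPKM in the Control mice. It was at 1.02, 1.28, 0.690, 0.990 and 0.902 FPKM in the AOM/DSS mice. The groups lay far apart, and the log2 fold change of -1.65 ± 0.22 carried the smallest adjusted P of the 32 genes (0.000572). Pln, which encodes phospholamban, the brake on the calcium pump, went from 4.08 ± 2.18 to 1.04 ± 0.690 FPKM, a change of -1.30 ± 0.29 (adjusted P = 0.00915). Jph2, which encodes junctophilin and holds the store against the plasma membrane, went from 17.02 ± 6.68 to 7.34 ± 1.86 FPKM, a change of -1.07 ± 0.23 (adjusted P = 0.00672). Neither overlapped between the groups.

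The 3 channel genes did not pass the test. Kcnmb1, the β1 subunit of the large-conductance potassium channel, was at 4.36 ± 1.298 FPKM in Control mice and at 2.81 ± 0.540 in AOM/DSS mice, with a log2 difference of -0.48 ± 0.17 (adjusted P = 0.0658). It passed with median-of-ratios scaling (-0.56), with array weights (-0.49) and without AOM/DSS mouse 30 (-0.55). Kcnma1, the pore subunit of the same channel, had a positive difference of 0.33 ± 0.19 (adjusted P = 0.254). Cacna1c, the pore of the L-type calcium channel, had one of -0.31 ± 0.26 (adjusted P = 0.444). The difference between the 2 subunits of the potassium channel was not tested.

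Srf was at 20.1, 18.4, 20.6, 18.1 and 24.7 FPKM in the Control mice and at 15.2, 17.3, 15.7, 16.96 and 15.8 FPKM in the AOM/DSS mice. The groups did not overlap, but the step was small, with a log2 fold change of -0.31 ± 0.10 just inside the threshold (adjusted P = 0.0498). Myocd was at 0.215 to 0.855 FPKM in Control mice and at 0.125 to 1.68 in AOM/DSS mice, and was under 1 FPKM in 19 of the 20 mice. Kit, the receptor tyrosine kinase that marks interstitial cells of Cajal in the muscle wall and also mast cells, was at 8.70 ± 3.54 FPKM in Control mice and at 10.3 ± 2.86 in AOM/DSS mice. Ano1, the chloride channel of cells of Cajal, was at 19.99 ± 3.47 and 14.2 ± 3.86 FPKM. Neither passed the test, with log2 differences of 0.26 ± 0.28 (adjusted P = 0.547) and -0.49 ± 0.17 (adjusted P = 0.067). Ano1 passed with median-of-ratios scaling (-0.60), with array weights (-0.55) and without AOM/DSS mouse 30 (-0.62).

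Of the 20 genes called, 10 were called under each of the 17 alternatives in which they were tested, namely Acta2, Myl9, Tagln, Cnn1, Des, Synm, Casq2, Pln, Jph2 and Pdlim7. Without AOM/DSS mouse 52 the count was 12 lower and 1 higher, without Control mouse 50 it was 16 and 1, and without Control mice 17 and 50 together it was 9 and 1. In that last setting Actg2, Smtn, Myh11 and Pdlim3 were among those that no longer passed, with log2 fold changes of -0.98, -0.82, -1.02 and -0.76. Leaving out 1 mouse ended the call of 7 genes. They were Srf (without Control mouse 17, 41 or 50 or AOM/DSS mouse 23, 30, 33, 44 or 52), Sgca (17, 37, 50, 23, 33, 44 or 52), Tpm1 (17, 23, 33, 44 or 52), Csrp1 (17, 33, 44 or 52), Tpm2 (17, 50, 44 or 52), Lmod1 (23, 44 or 52) and Pdlim3 (33 or 52). In 1 fit of all 20 mice Myh11 was at an adjusted P of 0.0503.

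**Figure D3:**
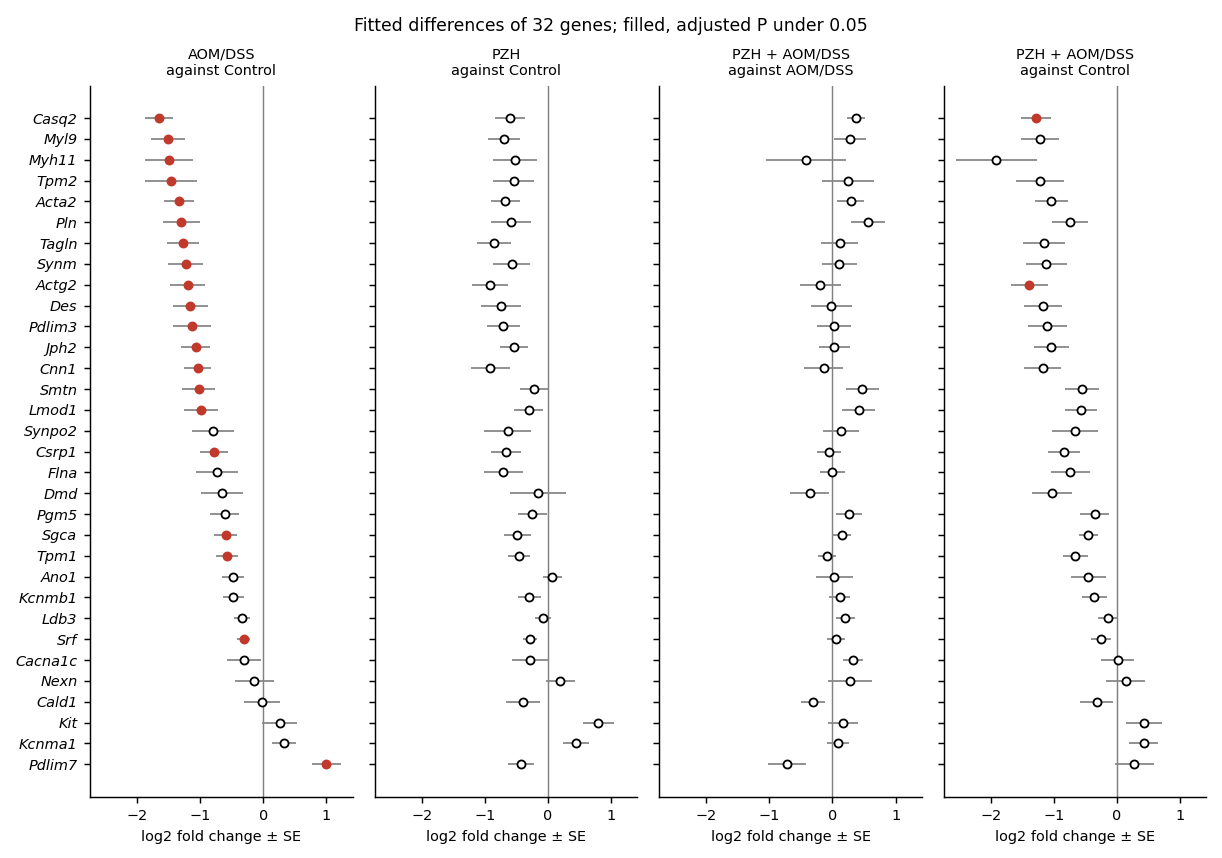
Fitted log2 fold change with its SE (horizontal axis) of the 32 genes tested, in 4 panels for the 4 group comparisons, 3 of which use the same 5 Control mice, with filled points for an adjusted P under 0.05 (limma). For AOM/DSS against Control 20 points are filled, for PZH + AOM/DSS against Control 2 (Casq2 and Actg2), and for the other two comparisons 0.

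PZH mice were compared with Control mice to see what the formula alone was accompanied by. No gene of the set was called by limma, and the share of all 15506 genes called was 0% for a rise and 0.00645% for a fall. At an unadjusted P under 0.05, 14 of the 32 genes were lower and 1 was higher, against 4.5% and 4.34% of all genes. The difference was negative in 28 of the 32, against 48.7% of all genes, and its median was -0.50 against 0.01. Without Control mouse 50 the median was -0.29, and without Control mice 17 and 50 it was -0.21. At the same unadjusted P, 4 of 12 fibroblast, 2 of 13 neuron and 1 of 8 glial genes were lower in PZH mice. The count lower was 1 of 10 epithelial, 0 of 11 leukocyte, 0 of 7 pericyte and 1 of 4 striated muscle genes. It was 2 of 19 genes listed as non-muscle counterparts. Of these lists, 1 epithelial and 1 pericyte gene were higher. The part of those cells was not tested.

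The values of single genes show how far the PZH and Control mice overlapped. Acta2 was at 567, 467, 467, 335 and 420 FPKM in PZH mice 8, 14, 27, 46 and 53, a log2 difference of -0.67 ± 0.23 from Control (unadjusted P = 0.0132, adjusted P = 0.512). Mouse 8 exceeded the lowest Control mouse, and mouse 46 was the lowest. Cnn1 was at 204, 156, 155, 58.6 and 145 FPKM, all below the lowest Control value of 205 FPKM (difference -0.91 ± 0.30, adjusted P = 0.512). Tpm1 was the only other gene of the set with no overlap, at 298, 276, 281, 214 and 232 FPKM against 302 to 564 in Control mice (-0.46 ± 0.18, adjusted P = 0.539). The share of all genes lower without overlap was 0.896%. Myh11, at 176, 155, 175, 86.9 and 103 FPKM, overlapped Control widely (-0.53 ± 0.35, adjusted P = 0.67).

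Kit had the smallest unadjusted P of the set and a positive sign. It was at 4.21, 7.78, 13.2, 11.2 and 7.07 FPKM in the Control mice and at 13.5, 18.2, 15.2, 12.3 and 15.9 FPKM in the PZH mice. Only Control mouse 41 exceeded a PZH mouse, and the log2 difference was 0.80 ± 0.24 (unadjusted P = 0.00773, adjusted P = 0.493). Ano1, the other marker of cells of Cajal, was at 19.99 ± 3.47 and 21.1 ± 3.88 FPKM, with a difference of 0.07 ± 0.15. Dmd was spread from 0.992 to 7.24 FPKM among the PZH mice, and Des was at 214 ± 78.8 FPKM (-0.75 ± 0.32, adjusted P = 0.546). Kcnmb1 was at 3.34 ± 0.809 FPKM (-0.30 ± 0.18, adjusted P = 0.652).

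PZH + AOM/DSS mice were compared with AOM/DSS mice to see whether treatment was accompanied by other levels of these genes. No gene of the set was called by limma. The share of all 15888 genes was 0.00629% for a rise and 0% for a fall. At an unadjusted P under 0.05, 1 gene of the set was higher (Casq2) and 1 lower (Pdlim7), against 3.51% and 8.21% of all genes. The median difference of the 32 genes was 0.11, against -0.04 over all genes. It was -0.01 without PZH + AOM/DSS mouse 13 and 0.22 without mouse 35, the lowest and highest values when 1 mouse was left out. These results do not show that the genes were alike in the 2 groups, since the SE of single genes reached 0.63.

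Casq2 was at 1.46, 2.17, 0.960, 1.60 and 1.66 FPKM in PZH + AOM/DSS mice 2, 13, 15, 35 and 36. All but mouse 15 lay above every AOM/DSS mouse, and the log2 difference was 0.37 ± 0.14 (unadjusted P = 0.0245, adjusted P = 0.376). Pdlim7 was at 9.51, 11.99, 15.7, 25.6 and 7.36 FPKM in these mice, so that mice 2, 13 and 36 lay below every AOM/DSS mouse and mice 15 and 35 did not. Its difference was -0.72 ± 0.30 (unadjusted P = 0.0359, adjusted P = 0.399). Of the main contractile genes, Acta2 was at 391.7, 517, 325, 239 and 304 FPKM (difference 0.29 ± 0.22, adjusted P = 0.621). Des was at 195, 255, 156, 90.3 and 101 FPKM (-0.02 ± 0.33, adjusted P = 0.991). Both genes overlapped the AOM/DSS mice over most of their range.

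Myh11 was spread widely among the PZH + AOM/DSS mice. It was at 124, 121, 9.41, 68.3 and 32.4 FPKM there, with a difference of -0.42 ± 0.63 from the AOM/DSS mice (adjusted P = 0.822) that became 0.16 without mouse 15. Set against Acta2 in the same mouse, Myh11 was 2.89% in mouse 15 and 10.7% in mouse 36, and 15.01 to 37.5% in the other 18 mice. The low value of Myh11 in mouse 15 thus had no like value in Acta2. Kcnmb1 (0.12 ± 0.17), Dmd (-0.36 ± 0.31) and Kit (0.16 ± 0.24) did not pass the test in this comparison either.

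Against Control mice, PZH + AOM/DSS mice had 2 genes lower and 0 higher of 32, with shares of 0.871% and 1.55% of all 15616 genes. They were Casq2 (-1.29 ± 0.24, adjusted P = 0.0265) and Actg2 (-1.39 ± 0.29, adjusted P = 0.0373). Actg2 was at 282, 437, 176, 152 and 206 FPKM in these mice, below every Control mouse. With them Acta2, Des and Tpm1 made 5 genes lower without overlap, against 2.59% of all genes. The median of the 32 genes was -0.70, against 0.06 over all genes, and 19 were lower at an unadjusted P under 0.05, against 7.93% of all genes. Des had -1.17 ± 0.30 (adjusted P = 0.0677) and Myh11 -1.91 ± 0.65 (adjusted P = 0.132).

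These 2 calls changed with single mice. The count was 0 without Control mouse 17, or without PZH + AOM/DSS mouse 2, 15 or 35, and it was 8 without PZH + AOM/DSS mouse 13. It was 1, with Actg2 lost, without Control mouse 37, 41, 48 or 50 or PZH + AOM/DSS mouse 36. It was 13 in 1 fit of all 20 mice, which shares the spread over the groups, and 0 without Control mice 17 and 50. Calls over all genes moved as well, from 242 higher and 136 lower to 923 and 580 in the fit of 20 mice. They were 287 and 208 without PZH + AOM/DSS mouse 13, and 22 and 7 without Control mice 17 and 50. The comparison shares its Control mice with those of AOM/DSS and of PZH alone. With median-of-ratios scaling the calls over all genes went from 242 higher and 136 lower to 217 and 216.

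The interaction asked whether PZH was accompanied by a different change in AOM/DSS mice than in mice on water, over all 20 mice. None of the 33 genes tested was called by limma, against 0.0059% of all 16936 genes in either direction. At an unadjusted P under 0.05, 6 genes were higher and 0 lower, against 3.41% and 6.92% of all genes. The 6 were Casq2 (0.97 ± 0.29, adjusted P = 0.35), Acta2 (0.96 ± 0.33), Pln (1.14 ± 0.44), Myl9 (0.98 ± 0.38), Sgca (0.63 ± 0.26) and Tagln (0.97 ± 0.42). In each the difference of PZH from Control was negative and that of PZH + AOM/DSS from AOM/DSS positive. The median over the 33 genes was 0.63, and it was 0.40 without Control mouse 50. Some genes of other lists had the same sign, but not those of every list. At the same unadjusted P, 8 of 48 other smooth muscle genes were higher and 0 lower, as were 4 of 12 fibroblast genes (Lum, 1.13 ± 0.32, Dpt, 1.03 ± 0.33, C7, 1.09 ± 0.45, and Dcn, 0.63 ± 0.29). Of 13 neuron genes 2 were higher (Calb2, 1.14 ± 0.35, and Stmn2, 0.83 ± 0.26) and 1 lower (Ret), of 8 glial genes 1 was higher (S100b, 0.70 ± 0.23), and of 12 epithelial genes 1 (Car1, 1.96 ± 0.54). Of 19 genes listed as non-muscle counterparts 1 was higher and 2 lower, and of 7 pericyte genes 0 and 1. Of 12 leukocyte genes it was 0 and 0, and of 6 striated muscle genes 1 and 0. The part of those cells in the interaction was not tested. These genes were named after their values were seen.

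Single transcripts were examined because the deposited values are per transcript. The 34 genes had 236 annotated transcripts, of which 94 averaged 0.5 FPKM or more. Between AOM/DSS and Control mice, 12 of the 84 tested fell and 2 rose, against 2.18% and 4.75% of all 40464 transcripts. Both that rose were from Pdlim7, the coding Pdlim7-201 (0.80 ± 0.21, adjusted P = 0.0469) and the intron-retaining Pdlim7-209 (1.10 ± 0.25, adjusted P = 0.028). Those that fell included the main transcripts of Acta2, Actg2, Myh11, Myl9, Tagln, Cnn1, Des and Casq2. Without AOM/DSS mouse 52 the count was 6 lower and 1 higher, and without AOM/DSS mouse 33 or 44 it was 7 and 1. Without Control mouse 17 it was 10 lower and 0 higher, so neither rise passed there, and without each of the other mice the count higher was 1. When AOM/DSS mice with and without PZH were compared, 0 of 83 were called by limma, against 0.00729% and 0.0146% of all 41170 transcripts.

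Tpm1 is known for muscle and non-muscle forms, and its 19 annotated transcripts did not all have the same sign. Tpm1-215 was at 155, 153, 147, 143 and 366 FPKM in the Control mice and at 69.0, 77.3, 57.01, 45.6 and 45.8 FPKM in the AOM/DSS mice (-1.62 ± 0.27, adjusted P = 0.00601). It made up 50.8 ± 8.07% of the summed Tpm1 level in Control mice, 40.3 ± 7.58% in PZH mice, 24.6 ± 4.84% in AOM/DSS mice and 26.1 ± 13.4% in PZH + AOM/DSS mice. The shares of Control and AOM/DSS mice did not overlap, with a lowest Control share of 44.5% and a highest AOM/DSS share of 28.7%. Tpm1-213 was at 36.2 ± 10.4 and 50.6 ± 23.8 FPKM in the same 2 groups (0.43 ± 0.31, adjusted P = 0.488). Tpm1-212 was at 0.565 to 8.81 FPKM in Control mice and at 4.54 to 53.2 in AOM/DSS mice (2.66 ± 0.71, adjusted P = 0.0501), where mouse 52 alone was under 33.1 FPKM. The shares themselves were not tested.

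Cald1 was listed under 1 of 2 transcripts, depending on the mouse. In 16 of the 20 mice Cald1-204 made up 90.2 to 96.1% of the Cald1 level and Cald1-203 at most 1.96%. In PZH mice 8, 14 and 53 and in PZH + AOM/DSS mouse 36, Cald1-203 made up 74.2, 75.5, 57.7 and 77.1% instead. The summed Cald1 level of these 4 mice, 51.0, 46.5, 40.7 and 33.8 FPKM, lay within the range of the other 16. All 4 mice had received PZH, and the other 6 mice that had received it were listed under Cald1-204. The difference between mice with and without PZH was not tested.

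**Figure D4:**
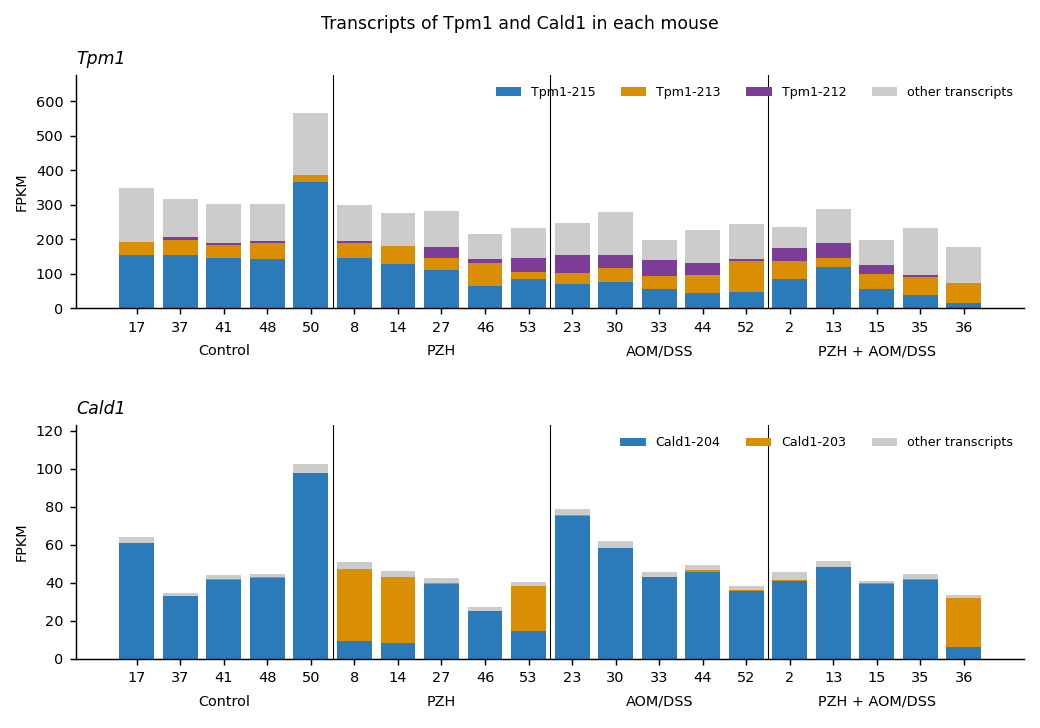
FPKM of the named transcripts of Tpm1 (top) and Cald1 (bottom) in each mouse as stacked bars from 0, with the remaining annotated transcripts in grey and mice in order of number within the 4 groups. Tpm1-215 takes a smaller part of the bar in AOM/DSS mice than in Control mice, and Cald1-203 takes most of the bar in 4 mice only, all of them given PZH.

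Further lists show what stood around these genes in the AOM/DSS comparison. The counts stand against the shares of all genes given for that comparison, 7.23% lower and 16.4% higher. Of 46 other smooth muscle genes tested, 15 fell and 5 rose, the latter under the share of all genes, with a median of -0.37. The largest falls were those of Ppp1r14a (-1.27 ± 0.25, adjusted P = 0.00512), which encodes an inhibitor of myosin phosphatase, Foxp2 (-1.14 ± 0.30) and the muscarinic receptor gene Chrm2 (-1.05 ± 0.30). Of 19 genes listed as non-muscle counterparts of the contractile proteins, 6 rose and 2 fell, with a median of 0.12. Not all of the 19, Csrp2 among them, are confined to cells outside muscle. Cnn3, the broadly expressed calponin, rose by 1.08 ± 0.14 on the log2 scale (adjusted P = 0.000388) and Tpm4 by 0.75 ± 0.13 (adjusted P = 0.0019), while Csrp2 was lower (-0.80 ± 0.15). In the same mice the muscle calponin Cnn1 fell. For the other comparisons with Control, 0 of 46 other smooth muscle genes were called by limma in PZH mice, where 1 was higher and 6 lower at an unadjusted P under 0.05, against 4.34% and 4.5% of all genes. In PZH + AOM/DSS mice 2 of 47 were lower and 1 higher, against 0.871% and 1.55% of all genes.

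**Figure D5:**
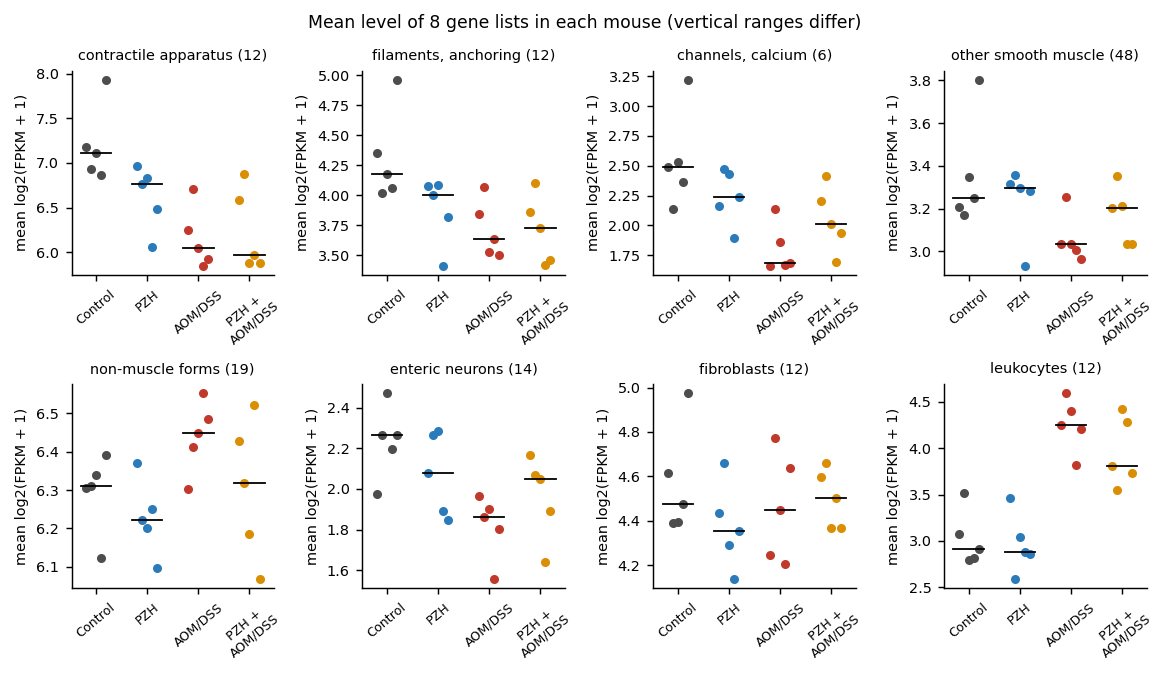
Mean log2(FPKM + 1) of 8 gene lists (vertical axes with different ranges that do not start at 0; number of genes in brackets) in each mouse, with the group median as a line. The contractile list is lower in AOM/DSS than in Control mice and the leukocyte list higher without overlap, while the fibroblast list overlaps between all 4 groups.

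Markers of other cells of the gut wall were counted in the same mice, where single calls are near the shares of all genes (7.23% lower and 16.4% higher). Of 13 enteric neuron genes tested, 6 fell and 1 rose, led by Calb2 (-1.55 ± 0.27), Ret (1.54 ± 0.23) and Stmn2 (-1.01 ± 0.17). Their sum was 58.4 to 87.2 FPKM in Control mice and 46.5 to 82.2 in AOM/DSS mice. Of 7 glial genes 4 fell and 1 rose, with sums of 9.91 to 15.7 and 7.21 to 8.69 FPKM. Of 12 leukocyte genes 5 rose and 0 fell, led by S100a8 (5.21 ± 0.87), with sums of 321 to 878 and 695 to 2700.4 FPKM. Of 11 epithelial genes 4 fell and 0 rose, led by Car1 (-2.21 ± 0.40), with sums of 5820.2 to 9364 and 4209 to 7802 FPKM.

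Fibroblast, pericyte and striated muscle genes were counted in the same way. Of 11 fibroblast genes 2 fell (Lum, -1.14 ± 0.25, and Dpt, -1.06 ± 0.26) and 2 rose, led by Col1a1 (0.95 ± 0.20). The fibroblast sums were 526 to 784 FPKM in Control and 549 to 836 in AOM/DSS mice. Of 6 pericyte genes tested by limma 0 were called, with sums of 34.7 to 51.1 and 36.5 to 55.4 FPKM. At an unadjusted P under 0.05, 1 was higher and 1 lower, against 3828 and 1862 of all 15812 genes. Of 5 striated muscle genes tested 1 fell, Ckm (-1.71 ± 0.35), with sums of 8.96 to 72.6 FPKM in Control mice, the highest being mouse 17, and 6.48 to 10.9 in AOM/DSS mice. Myh4 of this list was at 0 in every mouse except Control mouse 17 (0.0152 FPKM). In that mouse 9 of 15 striated muscle genes were highest, among them Acta1 at 21.2 FPKM. No list was tested against another, and the part of these cells in the changes of the contractile genes was not tested.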

How the data were processed

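Colon RNA of 20 mice, 5 per group, was sequenced as 1 library each. According to the study's methods, reads were checked with FastQC (v0.11.5), filtered with NGSQC (v2.3.3), aligned to mm10 with HISAT2 (v2.1.0) and quantified with StringTie (v1.3.3b). The deposited values are FPKM per transcript, computed by the authors. The labels name rRNA depletion and the methods add poly(A) selection.

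Each file lists 118434 transcripts, of which 22252 were assembled without a gene name and left out of the gene sums. The 96182 Ensembl transcripts were summed to 32991 genes by GENCODE M21 (96032 matched, 150 did not), which kept 85.1 to 87.9% of the FPKM. Counts were not used here, so depth and counting error are unknown.

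Genes reaching 0.5 FPKM in 5 or more of the mice under comparison were fitted as log2(FPKM + 1) with limma 3.58.1 (R 4.3.3, intensity trend, no covariate), with Benjamini-Hochberg adjustment over all of them and calls at an adjusted P under 0.05, two-sided. Folds are on that scale, which understates changes of low genes. The ± after a fold is its SE and after a level its SD. The fit was tested on simulated data with noise drawn independently for each gene and mouse. Shifts shared by many genes of a mouse, and changes of low genes, were not simulated. Transcripts were fitted likewise, over all those listed, so the transcripts without a gene name are in their adjustment and in the shares of all transcripts. Alternatives were a pseudocount of 0.1, no filter, 1 FPKM in every mouse, median-of-ratios scaling, array weights, 1 fit of 20 mice and each mouse left out. Leaving out Control mice 17 and 50 together was chosen after seeing the data.

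The 34 genes and all lists were chosen with earlier results of these data known. Fitted statistics were to be given for up to 14 genes called per comparison, by smallest adjusted P, and for Myh11, Des, Kcnmb1, Dmd, Myocd and Kit. From other lists, up to 3 called genes with the largest folds were named. Statistics of the remaining genes, Tpm1-212, Tpm1-213 and Cald1-203 were added after their values were seen.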

Additional observations from a re-analysis of the deposited data

Results flagged for a closer look

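In 27 of 136 groups of 5 mice (34 genes in 4 groups), the highest or lowest mouse stood apart by Dixon's criterion. For normally distributed values chance flags about 1 in 20 groups, or 6.8 here. The criterion was applied to FPKM, which need not be so distributed, so 27 cannot be weighed against 6.8. Of the 27, 17 were high values of Control mouse 50. They were Acta2 (1254 FPKM, against 540 to 708 in the other Control mice), Actg2 (996), Cnn1 (385), Tagln (1533), Myl9 (1026), Smtn (106), Lmod1 (25.3), Tpm1 (564), Des (573, against 278 to 305), Flna (225, against 58.1 to 88.8), Pgm5 (8.18), Pdlim3 (85.8), Pdlim7 (17.9), Csrp1 (654), Kcnmb1 (6.67), Pln (7.90) and Jph2 (28.7). In AOM/DSS mouse 30, Myh11 (145 FPKM, against 51.3 to 63.3), Synm (23.1), Synpo2 (8.99) and Jph2 (10.5) were high. Mylk was high in Control mouse 41 (7.88 FPKM, against at most 0.541) and in PZH mouse 27 (1.499, against at most 0.214), and Myocd in AOM/DSS mouse 33 (1.68, against at most 0.429). In the PZH + AOM/DSS group, Ldb3 was high in mouse 2 (7.92 FPKM), and Pgm5 (1.92) and Kcnma1 (2.81) were low in mouse 35. The genes of 1 mouse are not independent, and the causes were not tested.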

How the results depend on the processing

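Only 39 of the values of single genes named in the text were followed under the alternatives. Of the results this gave, 642 kept their direction and their side of the threshold, 24 no longer passed, 6 newly passed and 18 changed sign. The called genes Lmod1, Csrp1, Tpm1, Tpm2, Sgca and Srf are not in these counts. Their lost calls with 1 mouse left out are given above. For AOM/DSS against Control, 20 genes were called, and 13 to 21 when 1 mouse was left out (13 without AOM/DSS mouse 52). The count was 10 without Control mice 17 and 50, a choice made after seeing the data, where Kit changed sign (-0.0722). For PZH + AOM/DSS against Control, 2 genes were called. The count was 0 with no filter and 1 with at least 1 FPKM in every mouse (Casq2 was then not tested). It was 13 in 1 fit of 20 mice, 0 without Control mice 17 and 50, and 0 to 8 when 1 mouse was left out. Calls over all genes also moved, from 242 higher and 136 lower to 923 and 580 in the fit of 20 mice. No gene of the set was called by limma in the other 3 comparisons under any alternative (at an unadjusted P under 0.05, 15 in PZH mice, 2 in AOM/DSS mice with PZH and 6 in the interaction). Over all genes, PZH + AOM/DSS against AOM/DSS gave 1 call higher and 0 lower, against 119 and 689 without PZH + AOM/DSS mouse 35 and 4 and 85 in 1 fit of 20 mice. Transcripts called numbered 14 for AOM/DSS against Control, with 7 to 18 when 1 mouse was left out, and 0 for PZH + AOM/DSS against AOM/DSS, with 0 to 1 (1 without PZH + AOM/DSS mouse 35). Signs turned only for differences that did not pass the test. For PZH + AOM/DSS against AOM/DSS, Des was 0.0155 with median-of-ratios scaling, 0.12 with array weights and -0.21 to 0.16 when 1 mouse was left out, and Myh11 -0.74 to 0.16. For PZH against Control, Dmd was -0.448 to 0.0640. For the interaction, Myh11 was -0.21 to 0.68 and Dmd -0.428 to 0.0843. The cause was not tested. No paired analysis was possible because the groups share no mouse numbers. With 5 mice per group and depth unknown, small differences, above all in genes near 1 FPKM, were not detectable here, and nothing says whether the samples were taken or sequenced in batches.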
